A study of Mus musculus with 8 samples.

Results

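Messenger RNA of 9 genes that act downstream of the transcription factor NF-kB was followed in spheroids of 2 mouse mammary lines. The genes were taken by symbol from the count table, where each of the 9 had a row of its own among 25413 genes. They are the adhesion receptors Icam1 and Vcam1, the secreted acute-phase and antimicrobial proteins Lcn2, Slpi and Saa3, the mitochondrial enzyme Sod2, the stress-response gene Ier3, and the survival genes Birc3 and Traf1. They were chosen by measured values of these data, although which values is not stated. Because several had already been seen to be higher after exposure of EpH4-AS, that contrast is treated here as used in the choice. Contrasts between the lines use the same EpH4-AS libraries, so the p-values given for them below are descriptions and not independent tests.

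NF-kB is a family of dimeric transcription factors that inhibitor proteins hold in the cytoplasm until a kinase complex, switched on by cytokine or pattern-recognition receptors, marks those inhibitors for destruction. The freed dimers bind kB sites and induce genes for adhesion, acute-phase secretion, antioxidant defence and survival, and also genes for their own inhibitors, which end the response. In the mammary gland the pathway is known for its activity in pregnancy and in the involution that follows lactation.

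Each of 4 groups held 2 RNA-seq libraries: EpH4-AS spheroids with PM2.5, EpH4-AS spheroids left untreated, EpH4 spheroids with PM2.5, and EpH4 spheroids left untreated. EpH4 is an established mouse mammary line that the labels call wild type, and EpH4-AS is its malignantly transformed counterpart, labelled AS-transformed without a statement of how it was transformed or whether it is a clone. PM2.5 is fine particulate matter of polluted air, for which no dose or time is given in the labels used here. All libraries came from 3D cultures, polyadenylated RNA and a single labelled batch. Nothing in the labels tells whether paired libraries are separate cultures or repeats of one, so that p-values may reflect technical spread only.

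Total counts were 17131588 and 18334052 in exposed EpH4-AS, 16356285 and 15393256 in untreated EpH4-AS, 26457809 and 24608176 in exposed EpH4, and 27765982 and 25687434 in untreated EpH4. Levels are given as CPM, counts per 1000000 scaled for library composition, and genes are compared with each other only by the authors' RPKM, which also divides by exon length. The labels name the tissue epithelial, but the epithelial markers were almost silent: Krt19 and Cldn4 had no count, Cdh1, Epcam, Krt8 and Krt18 averaged at most 0.518 CPM in any group, and the 10 markers summed to 2.16 to 2.72 CPM in EpH4-AS and 3.70 to 9.70 CPM in EpH4. Most of the EpH4 sum was the basal keratin Krt14, at 8.59 CPM in exposed and 3.17 CPM in untreated EpH4. Fibroblast markers summed to 4086 to 5115 CPM in EpH4-AS and 4513 to 5064 CPM in EpH4, led by Vim. These similar sums hide opposite differences, since 3 of the 8 tested were called higher and 5 lower in EpH4-AS under either condition. Of the 5, Col1a1 had 4 and 3 reads in exposed and untreated EpH4-AS. It passed the filter on low counts only through EpH4 and had to be lower. Vim averaged 4285 and 3653 CPM in exposed and untreated EpH4-AS beside 2319 and 2068 CPM in exposed and untreated EpH4. Col1a2 went the other way, with 28.3 and 34.4 CPM in exposed and untreated EpH4-AS beside 1145 and 1067 CPM in exposed and untreated EpH4. The lines also differed outside these genes, since mitochondrially encoded genes held 0.270% and 0.302% of counts in exposed and 0.219% and 0.246% in untreated EpH4-AS, and 4.23% and 5.03% in exposed and 2.72% and 2.21% in untreated EpH4. In each line that share was higher in both exposed libraries. Because these are bulk samples, fewer cells of a type and less RNA per cell cannot be told apart. The part of marker levels or mitochondrial counts in the results below was not tested.

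The stretch upstream of a gene is where NF-kB could bind, so 250 bases before the annotated start were read for 8 of the genes, all but Vcam1, from a RefSeq table of assembly GRCm38.p6, and searched on both strands for the NF-kB decamer consensus. It occurred in 2 of the 8, Sod2 and Ier3, and in 2382 of all 32851 promoters of that length, or 7.25%. The 4 stretches shown are the pair with a match and, for contrast, that of Icam1, which was nearly silent in EpH4, and that of Lcn2, which was the highest of the 9 by RPKM there. They lie at chr17:13007589-13007838 on the plus strand for Sod2, chr17:35821463-35821712 on the plus strand for Ier3, chr9:21015690-21015939 on the plus strand for Icam1, and chr2:32387740-32387989 on the minus strand for Lcn2. Each is written 5′ to 3′ toward the start, with capitals marking the match.
Sod2: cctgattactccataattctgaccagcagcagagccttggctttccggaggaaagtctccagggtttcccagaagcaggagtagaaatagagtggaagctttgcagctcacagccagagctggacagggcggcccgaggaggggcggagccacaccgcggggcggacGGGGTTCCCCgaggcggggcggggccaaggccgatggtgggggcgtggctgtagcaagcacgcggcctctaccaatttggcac
Ier3: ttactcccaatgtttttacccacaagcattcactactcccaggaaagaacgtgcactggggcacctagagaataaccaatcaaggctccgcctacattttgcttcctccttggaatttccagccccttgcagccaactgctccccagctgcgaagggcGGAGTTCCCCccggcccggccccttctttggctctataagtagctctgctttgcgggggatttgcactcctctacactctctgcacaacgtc
Icam1: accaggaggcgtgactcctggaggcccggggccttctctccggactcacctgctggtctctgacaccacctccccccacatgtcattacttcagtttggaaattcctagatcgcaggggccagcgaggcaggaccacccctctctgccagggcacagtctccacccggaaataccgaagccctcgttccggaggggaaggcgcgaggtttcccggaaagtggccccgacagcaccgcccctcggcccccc
Lcn2: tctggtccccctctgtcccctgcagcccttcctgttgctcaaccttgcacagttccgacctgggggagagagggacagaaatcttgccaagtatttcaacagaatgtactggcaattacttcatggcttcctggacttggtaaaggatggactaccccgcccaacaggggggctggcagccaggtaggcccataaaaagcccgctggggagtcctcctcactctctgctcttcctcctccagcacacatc
The Sod2 match, GGGGTTCCCC, runs from base -83 to -74 counted from the start and reads as the consensus on either strand, while the Ier3 match, GGAGTTCCCC, runs from -92 to -83 and is the consensus on the minus strand. A match is a string of letters and not a shown binding site. Only this consensus was searched, and kB sites of other forms were not. Its absence therefore does not mean that a window, that of Icam1 included, lacks a kB site, and says nothing of NF-kB elsewhere. The CpG dinucleotides differed too, with 15 each upstream of Sod2 and Icam1, 8 upstream of Ier3, 6 for Birc3, 4 for Traf1, 3 each for Lcn2 and Saa3 and 2 for Slpi, beside a median of 6 over all promoters.

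The 2 lines kept different members of the set on. By RPKM, EpH4-AS was led by Ier3 and Icam1, and EpH4 by the secreted proteins Lcn2 and Slpi, while Icam1 and Birc3 were nearly absent from EpH4. In exposed EpH4-AS the levels ran from 438 ± 25.5 RPKM for Ier3 through 46.5 ± 0.754 for Icam1, 35.5 ± 5.24 for Lcn2, 24.2 ± 2.52 for Slpi, 21.3 ± 2.14 for Sod2 and 2.61 ± 0.182 for Birc3 to 0.920 ± 0.240 for Vcam1, 0.611 ± 0.0723 for Traf1 and 0.427 ± 0.136 for Saa3 (mean ± SD, n = 2). The mean ± SD ranges of Slpi and Sod2 overlapped there, as did those of neighbours among the lowest 3. The order was the same in untreated EpH4-AS, from 131 ± 1.98 RPKM for Ier3 and 23.1 ± 1.31 for Icam1 down to 0.345 ± 0.0955 for Saa3. In exposed EpH4 the order was Lcn2 at 1157 ± 49.3 RPKM, Slpi at 1121 ± 231, Ier3 at 428 ± 16.4, Sod2 at 18.1 ± 2.34, Saa3 at 16.5 ± 5.83, Vcam1 at 14.3 ± 1.40 and Traf1 at 1.48 ± 0.113, followed by Icam1 at 0.0327 ± 0.0112 and Birc3 at 0.0217 ± 0.0197. The neighbours Lcn2 and Slpi did not differ beyond their spread in that group, nor did Sod2 and Saa3, Saa3 and Vcam1, or Icam1 and Birc3. Untreated EpH4 had the same order, with Lcn2 at 1219 ± 149 RPKM above Slpi at 590.0 ± 206. The 9 genes together took 0.0934% and 0.103% of counts in exposed EpH4-AS, 0.0334% and 0.0345% in untreated EpH4-AS, 0.395% and 0.448% in exposed EpH4, and 0.382% and 0.309% in untreated EpH4.

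**Figure D1:**
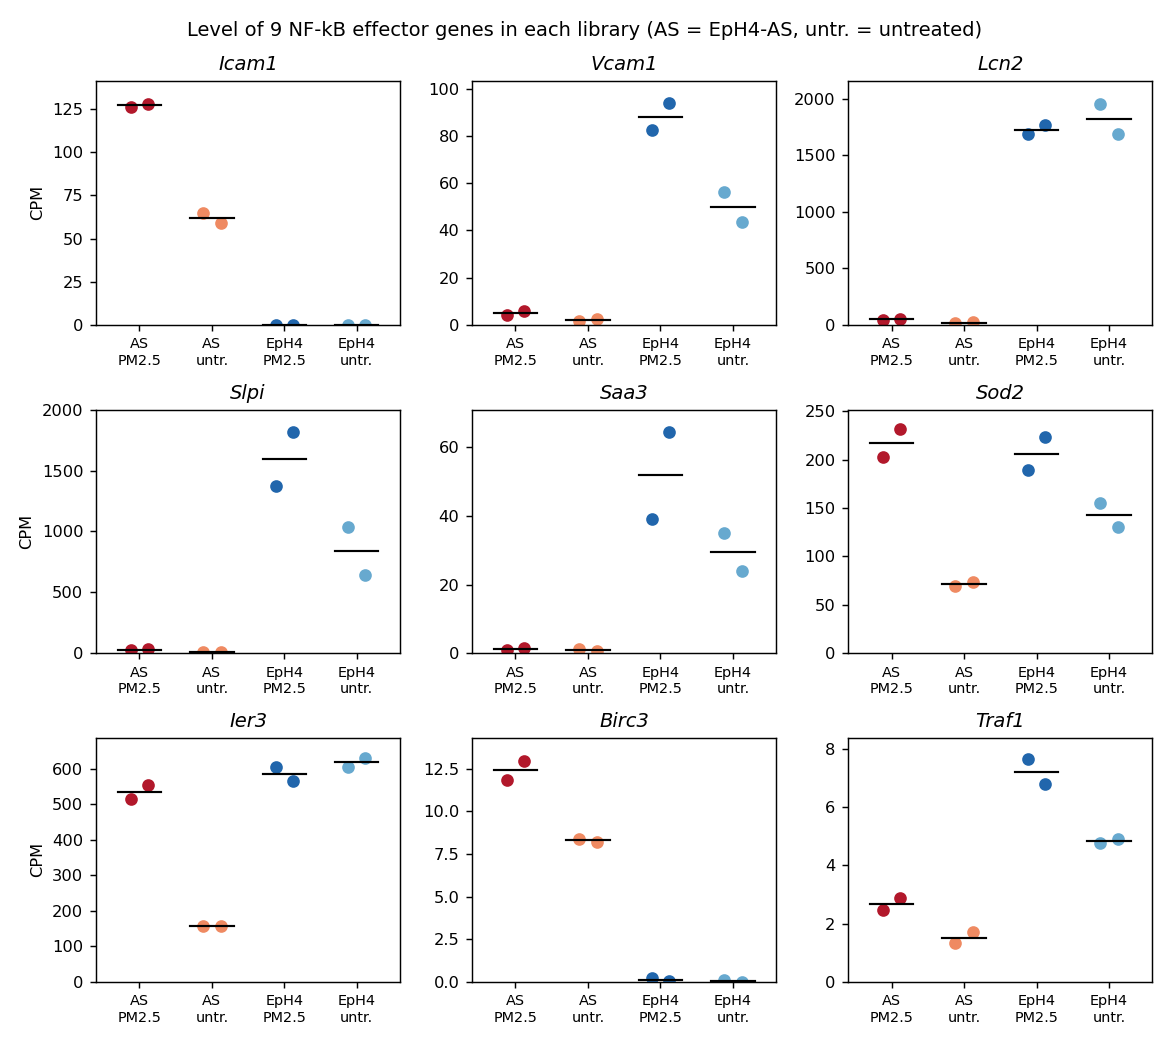
Level of each gene in CPM (vertical axis, linear, starting at 0) in every library, by group; points are libraries and lines are means of 2. Icam1 and Birc3 lie near 0 in EpH4, Lcn2, Slpi, Saa3 and Vcam1 are low in EpH4-AS, and exposed EpH4-AS overlaps exposed EpH4 for Sod2 alone of the 9, with 202 and 232 CPM beside 189 and 224 CPM in exposed EpH4.

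The adhesion receptors went opposite ways between the lines. Icam1, the receptor through which leukocytes attach by their beta-2 integrins, lies at chr9:20927281-20940113 on the plus strand (ENSMUSG00000037405, GRCm39). It measured 126 and 128 CPM in exposed EpH4-AS, 64.8 and 59.0 CPM in untreated EpH4-AS, 0.0762 and 0.123 CPM in exposed EpH4, and 0.0364 and 0.119 CPM in untreated EpH4. All 4 EpH4-AS libraries were far above all 4 EpH4 libraries, and within EpH4-AS both exposed libraries were above both untreated ones. The EpH4 values rest on 2 and 3 reads in exposed libraries and on 1 and 3 reads in untreated libraries, so the gene entered the test only through EpH4-AS and had to differ between the lines. From summed counts the ratio of EpH4-AS to EpH4 was 1287 with PM2.5 (exact 95% interval 551 to 3966) and 816 without it (318 to 2998), intervals that cover counting error only. In EpH4 the exposed to untreated ratio of 1.30 had an interval of 0.280 to 6.56, so a change there was not detectable at this depth.

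Vcam1, which binds alpha-4 integrins and lies at chr3:115903598-115923337 on the minus strand (ENSMUSG00000027962), was the reverse. It had 4.14 and 5.97 CPM in exposed EpH4-AS, 1.75 and 2.47 CPM in untreated EpH4-AS, 82.7 and 93.7 CPM in exposed EpH4, and 56.3 and 43.5 CPM in untreated EpH4. Exposed libraries were above untreated ones in each line without overlap, and EpH4 libraries were above every EpH4-AS library. In EpH4 it rose with PM2.5 by 0.82 ± 0.11 on the log2 scale (fold 1.76, edgeR adjusted p = 0.000110). Against EpH4, EpH4-AS was lower by a log2 fold change of -4.11 ± 0.16 with PM2.5 (edgeR adjusted p = 2.23e-12) and -4.57 ± 0.20 without it (edgeR adjusted p = 8.92e-12).

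Icam1 sits in a row of related adhesion genes on the same strand: Icam4 begins 555 bases past its end and Icam5 lies 3255 bases past it, with Icam4 between. Icam4 had 32.9 ± 1.48 CPM in exposed EpH4-AS, 44.2 ± 1.39 in untreated EpH4-AS, 0.0396 ± 0.00212 in exposed EpH4 and 0.0778 ± 0.0587 in untreated EpH4 (SD, n = 2). Icam5 had 128 ± 12.04 CPM in exposed EpH4-AS, 148 ± 1.996 in untreated EpH4-AS, 2.05 ± 0.361 in exposed EpH4 and 2.64 ± 0.584 in untreated EpH4. Both neighbours were thus higher in EpH4-AS, with Icam4 near 0 in EpH4, as Icam1 was, and Icam5 low but present there. Icam4 had 2 reads in exposed and 4 in untreated EpH4, so like Icam1 it passed the filter only through EpH4-AS. With PM2.5 in EpH4-AS the means of both neighbours were lower, while Icam1 was higher by 1.04 ± 0.06 on the log2 scale. Icam4 fell by 0.43 ± 0.08 (edgeR adjusted p = 0.00474), and for Icam5 only the levels above are given. Reads that run past the end of Icam1 into Icam4 could not be told apart from reads of Icam4 itself.

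Of the secreted proteins, Lcn2 and Slpi were the members that set EpH4 apart by amount, while Saa3 was near Sod2 and Vcam1 by RPKM there. Lcn2 encodes lipocalin 2, which withholds iron from bacteria by binding their siderophores, and lies at chr2:32274645-32278264 on the minus strand (ENSMUSG00000026822). It measured 42.5 and 52.0 CPM in exposed EpH4-AS, 17.0 and 20.9 CPM in untreated EpH4-AS, 1685 and 1766 CPM in exposed EpH4, and 1957 and 1685 CPM in untreated EpH4. Exposed EpH4-AS libraries were above untreated ones, whereas the exposed and untreated EpH4 libraries overlapped. EpH4-AS against EpH4 gave a log2 fold change of -5.19 ± 0.11 with PM2.5 (edgeR adjusted p = 4.83e-15) and -6.59 ± 0.12 without it (edgeR adjusted p = 1.47e-15). Within EpH4 the PM2.5 effect was -0.078 ± 0.09 (edgeR adjusted p = 0.551).

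Slpi encodes an inhibitor of neutrophil elastase with antimicrobial activity, and its row spans chr2:164195990-164231015 on the minus strand (ENSMUSG00000017002). It had 28.6 and 32.9 CPM in exposed EpH4-AS, 8.49 and 12.1 CPM in untreated EpH4-AS, 1373 and 1816 CPM in exposed EpH4, and 1039 and 642 CPM in untreated EpH4. Each line had both exposed libraries above both untreated ones, and the EpH4 replicates were far apart. With PM2.5 it rose in EpH4 by 0.92 ± 0.17 on the log2 scale (fold 1.90, edgeR adjusted p = 0.00120). Its line contrast was -5.69 ± 0.22 with PM2.5 (edgeR adjusted p = 2.66e-12) and -6.36 ± 0.24 without it (edgeR adjusted p = 2.72e-12).

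Saa3, an acute-phase serum amyloid A that mice make outside the liver, lies at chr7:46361422-46365124 on the minus strand (ENSMUSG00000040026). It had 0.934 and 1.47 CPM in exposed EpH4-AS, 1.14 and 0.759 CPM in untreated EpH4-AS, 39.1 and 64.4 CPM in exposed EpH4, and 35.0 and 23.9 CPM in untreated EpH4. It was the 1 member whose exposed and untreated EpH4-AS libraries overlapped, at 12 to 27 reads each. In EpH4 it rose by 0.80 ± 0.19 on the log2 scale (fold 1.75, edgeR adjusted p = 0.00600). Without the second exposed EpH4 library that value was 0.40 (edgeR adjusted p = 0.0983), and DESeq2 gave an adjusted p of 0.168 with all libraries. EpH4-AS was below EpH4 by a log2 fold change of -5.41 ± 0.33 with PM2.5 (edgeR adjusted p = 6.69e-10) and -4.94 ± 0.38 without it (edgeR adjusted p = 9.52e-09). Its neighbours in the gene cluster, Saa4, Saa1 and Saa2, had no read in EpH4-AS and averaged at most 0.282 CPM in EpH4.

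Sod2 and Ier3 had similar levels in the exposed lines, and each differed less there than between the untreated ones. Smaller line contrasts with PM2.5 were also seen for Lcn2, Slpi, Vcam1, Traf1 and Birc3, which still differed clearly. Those of Icam1 and Saa3 were larger. In EpH4, Icam1 and Birc3 rest on few reads. Sod2 and Ier3 have a kB-like match upstream, whose part in their levels was not tested, and the smaller contrast was not limited to genes with a match. Sod2, the superoxide dismutase of mitochondria, lies at chr17:13225733-13258950 on the plus strand (ENSMUSG00000006818). It had 202 and 232 CPM in exposed EpH4-AS, 69.4 and 73.3 CPM in untreated EpH4-AS, 189 and 224 CPM in exposed EpH4, and 155 and 131 CPM in untreated EpH4. The exposed libraries of the lines overlapped, and the untreated EpH4-AS libraries were the lowest of the 8. In EpH4 it rose by 0.53 ± 0.09 on the log2 scale (fold 1.44, edgeR adjusted p = 0.000677). Untreated EpH4-AS was lower than untreated EpH4 by a log2 fold change of -1.004 ± 0.10 (edgeR adjusted p = 1.20e-07), and with PM2.5 the line contrast was 0.074 ± 0.09 (edgeR adjusted p = 0.434).

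Ier3 is an immediate-early gene induced by stress and NF-kB that affects cell survival, and lies at chr17:36132576-36133815 on the plus strand (ENSMUSG00000003541). It had 514 and 554 CPM in exposed EpH4-AS, 156 and 157 CPM in untreated EpH4-AS, 605 and 565 CPM in exposed EpH4, and 605 and 630 CPM in untreated EpH4. Untreated EpH4-AS stood alone at the low end, and the other 6 libraries lay between 514 and 630 CPM. In EpH4 the PM2.5 effect was -0.078 ± 0.06 on the log2 scale and did not pass the test (edgeR adjusted p = 0.338). The line contrast was -1.98 ± 0.06 without PM2.5 (edgeR adjusted p = 1.84e-13) and -0.13 ± 0.06 with it (edgeR adjusted p = 0.0403). That last call was lost with no filter on low counts (adjusted p = 0.0505), with the exposed libraries fitted alone (0.0631), without the first exposed library of EpH4-AS (adjusted p = 0.414) or of EpH4 (0.219), or without the first (0.104) or second (0.107) untreated library of EpH4-AS, by edgeR.

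The survival genes were present at low levels. Birc3, which encodes the ubiquitin ligase cIAP2 that keeps tumour necrosis factor receptor signalling from causing cell death, lies at chr9:7848700-7873187 on the minus strand (ENSMUSG00000032000). It had 11.8 and 12.97 CPM in exposed EpH4-AS, 8.37 and 8.22 CPM in untreated EpH4-AS, 0.191 and 0.0411 CPM in exposed EpH4, and 0.0727 and 0 CPM in untreated EpH4. EpH4 again had nearly none, with 6 reads in the exposed libraries and 2 in the untreated ones, so that the gene, like Icam1, passed the filter only through EpH4-AS. The count ratio of EpH4-AS to EpH4 was 105 with PM2.5 (exact 95% interval 47.8 to 287) and 218 without it (59.9 to 1813). Exposed over untreated EpH4 gave 3.12 with an interval of 0.558 to 31.6, so the depth could not show a change. Its neighbour Birc2, which encodes the close relative cIAP1 and lies 11634 bases away, was present in all groups, with 18.9 ± 0.944 CPM in exposed EpH4-AS, 18.6 ± 2.48 in untreated EpH4-AS, 40.5 ± 1.496 in exposed EpH4 and 44.6 ± 3.34 in untreated EpH4. Reads shared between these relatives could be split by the counting, which is not described in the sources used here.

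Traf1, an adaptor that joins cIAP proteins to tumour necrosis factor receptors, lies at chr2:34831762-34851784 on the minus strand (ENSMUSG00000026875). It had 2.45 and 2.88 CPM in exposed EpH4-AS, 1.32 and 1.71 CPM in untreated EpH4-AS, 7.66 and 6.78 CPM in exposed EpH4, and 4.76 and 4.89 CPM in untreated EpH4. No groups overlapped, and every EpH4 library was above every EpH4-AS library. In EpH4 it rose by 0.58 ± 0.15 on the log2 scale (fold 1.497, edgeR adjusted p = 0.00918), a call lost without the first exposed EpH4 library (edgeR adjusted p = 0.0766) and under DESeq2 (adjusted p = 0.123). The line contrast was -1.43 ± 0.17 with PM2.5 (edgeR adjusted p = 1.75e-06) and -1.67 ± 0.21 without it (edgeR adjusted p = 2.67e-06).

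Exposure of EpH4 shares no library with exposure of EpH4-AS, but it may also have been among the values that chose the genes. There 5 of the 9 rose, namely Vcam1, Slpi, Saa3, Sod2 and Traf1, where 14.3% of all 13716 genes tested were called higher, 12.9% lower and 27.2% in either direction. The median log2 fold change was 0.58 for the 9 genes and 0.00438 for all genes tested. Of the 4 without a call, Icam1 and Birc3 had too few reads, and Lcn2 and Ier3 were at 1821 ± 192 and 618 ± 17.2 CPM in untreated EpH4 (SD, n = 2). DESeq2 called 3 of the 9, Vcam1, Slpi and Sod2.

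In EpH4-AS the exposure values are a description, because they are taken to have helped to pick the genes. Ier3 was higher by 1.77 ± 0.06 on the log2 scale (fold 3.41), Sod2 by 1.61 ± 0.10 (3.04), Slpi by 1.59 ± 0.28 (3.00) and Lcn2 by 1.32 ± 0.12 (2.495). Vcam1 was higher by 1.27 ± 0.30 (fold 2.42), Icam1 by 1.04 ± 0.06 (2.05), Traf1 by 0.82 ± 0.25 (1.76) and Birc3 by 0.58 ± 0.16 (1.497), and Saa3 differed by 0.34 ± 0.75. The median was 1.27, and that of all genes tested was 0.00245. The fit called 8 of the 9 higher, beside 6.39% of all genes higher, 4.75% lower and 11.1% in either direction, from which nothing is read here. In the same contrast 3 of 8 fibroblast markers fell, and Col3a1 averaged 11.6 CPM in exposed and 45.1 CPM in untreated EpH4-AS, and Dcn 271 and 392 CPM in exposed and untreated EpH4-AS; their part in the result was not tested. Leaving out a library of EpH4-AS left 4 calls without the first untreated one, 5 without the second untreated one, 6 without the first exposed one and 5 without the second exposed one. Ier3, Sod2, Lcn2 and Icam1 were among the calls in each of these.

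**Figure D2:**
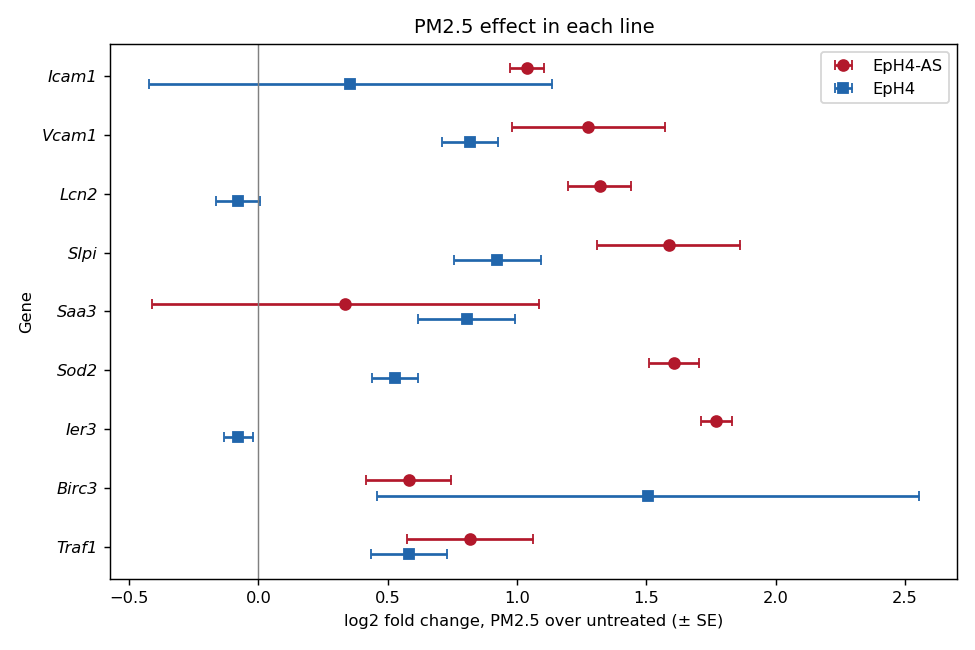
log2 fold change of PM2.5 over untreated (horizontal axis) for each gene in EpH4-AS and EpH4; bars are standard errors of the fit. Ier3 and Lcn2 lie at 1.77 and 1.32 in EpH4-AS and at -0.078 each in EpH4, and the wide bars of Icam1 and Birc3 in EpH4 belong to groups of 2 to 6 reads.

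The response in EpH4-AS minus that in EpH4 was 1.85 ± 0.08 on the log2 scale for Ier3, 1.40 ± 0.15 for Lcn2 and 1.08 ± 0.13 for Sod2. It was 0.66 ± 0.33 for Slpi, 0.46 ± 0.32 for Vcam1 and 0.24 ± 0.29 for Traf1. For Saa3, Icam1 and Birc3 the errors of 0.79, 0.88 and 1.03 were larger than, or close to, the differences of -0.47, 0.68 and -0.92. These differences rest partly on the same EpH4-AS contrast and are given as a description; the fit called the first 3 higher, beside 7.60% of all genes, with 14.1% called in either direction.

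Between the lines nearly every gene was called, so that counts say little. With PM2.5, 2 of the 9 were called higher in EpH4-AS and 6 lower, where 43.5% and 45.5% of all genes were, 89.0% in all. In untreated spheroids 2 were higher and 7 lower, where 43.6% and 45.7% of all genes were, 89.2% in all. The median log2 fold change of the 9 was -1.43 with PM2.5 and -1.98 without it, beside -0.037 and -0.055 for all genes. Both contrasts share EpH4-AS libraries with the exposure contrast, so the adjusted p given for them per gene are descriptions. Leukocyte markers, like Lcn2, Slpi, Saa3 and Vcam1, were lower in EpH4-AS, in all 5 tested. Of these, Adgre1 and Laptm5 had at most 2 reads in either EpH4-AS group. They passed the filter only through EpH4 and had to be lower. The 10 markers summed to 40.1 to 43.3 CPM in EpH4-AS and 230 to 299 CPM in EpH4, nearly all of it Cd68 and Cd14. Ptprc, which marks all leukocytes, averaged at most 0.0364 CPM. Endothelial markers summed to at most 1.19 CPM in any library, and none passed the filter.

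**Figure D3:**
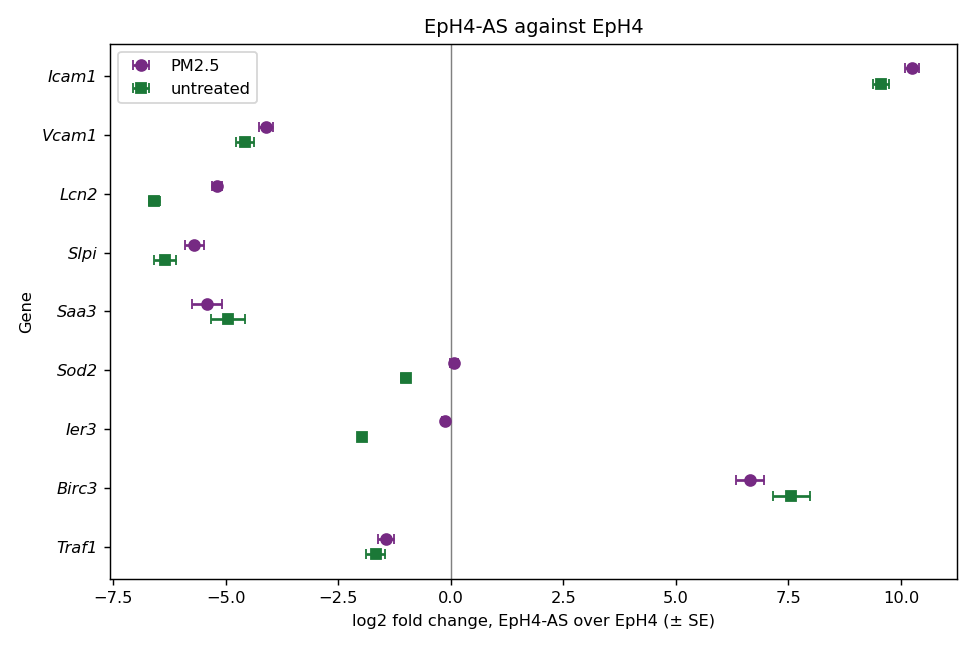
log2 fold change of EpH4-AS over EpH4 (horizontal axis) for each gene with PM2.5 and in untreated spheroids; bars are standard errors of the fit. Icam1 and Birc3 lie to the right, 4 genes lie beyond -4, and Sod2 and Ier3 sit at 0.074 and -0.13 with PM2.5 beside -1.004 and -1.98 without it; the fitted values of Icam1 and Birc3 depend on the prior count, since EpH4 has few reads.

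The authors' tables per library also count reads anywhere in a gene, from which reads outside exons were taken, which unspliced RNA can give. Over all genes they made up 3.39% to 3.59% of gene reads in EpH4-AS and 11.3% to 12.5% in EpH4, so that levels outside exons are not comparable between the lines. Ier3 had 4.33 and 4.11 such reads per 1000000 gene reads in exposed EpH4-AS, 2.59 and 2.07 in untreated EpH4-AS, 4.70 and 4.14 in exposed EpH4, and 5.69 and 5.57 in untreated EpH4. Its reads outside exons were thus higher with PM2.5 in EpH4-AS and lower in EpH4. Sod2 had 0.450 and 1.11 such reads per 1000000 gene reads in exposed EpH4-AS, 0.295 and 0.188 in untreated EpH4-AS, 12.5 and 11.4 in exposed EpH4, and 7.45 and 8.74 in untreated EpH4. The values of Sod2 in EpH4-AS rested on few reads, 29 in both exposed libraries together. Within EpH4-AS, Icam1 had 1.58 and 1.26 in exposed and 0.531 and 0.628 in untreated libraries, and Lcn2 had 0.675 and 0.685 in exposed and 0.177 and 0.251 in untreated libraries, on the same scale. For Vcam1 and Slpi too, both exposed libraries were above both untreated ones in each line. In EpH4-AS this rested on few reads, 5 in exposed and 2 in untreated libraries together for Vcam1, and 26 and 9 for Slpi. Saa3 had none in EpH4-AS. No further test was run on these low numbers. How many of all genes show the same order was not counted, and the EpH4-AS contrast is taken to have helped to pick the genes.

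**Figure D4:**
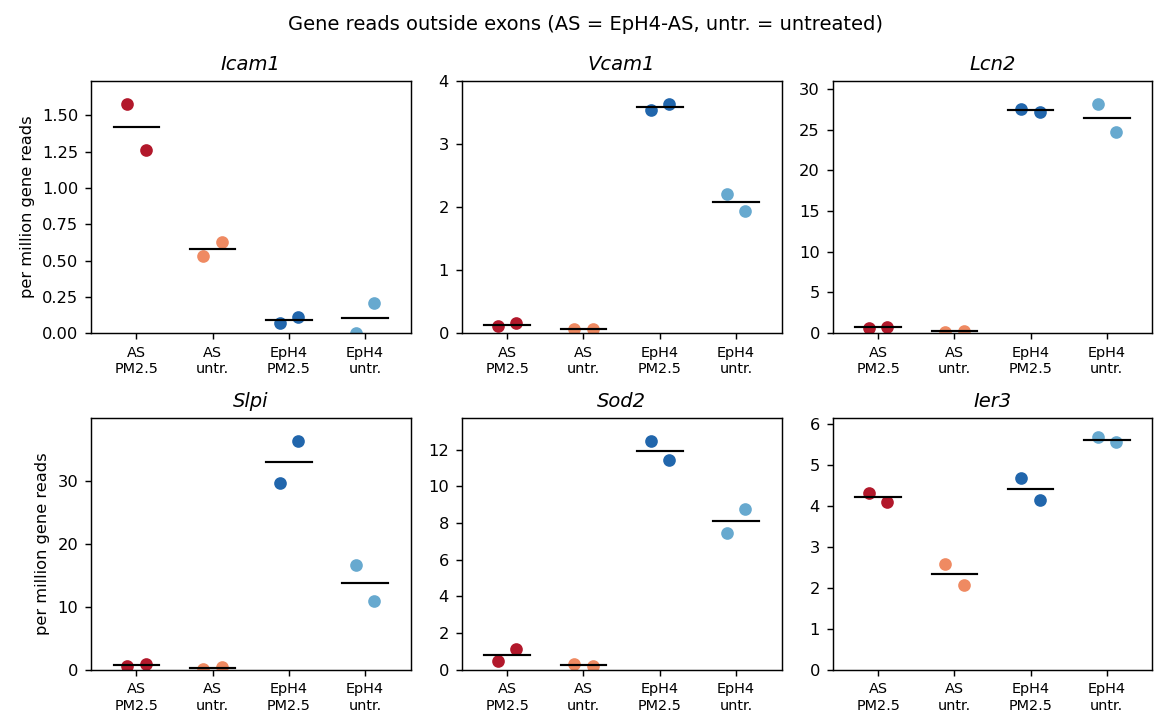
Reads outside exons per 1000000 gene reads (vertical axis, linear, starting at 0) for 6 of the genes in every library, by group; points are libraries and lines are means of 2. Exposed EpH4-AS lies above untreated EpH4-AS for the genes shown, for Vcam1 on only 5 exposed and 2 untreated reads. The share of all genes with this order was not counted, so nothing is read from it. In EpH4 the exposed libraries lie above the untreated ones for Vcam1, Slpi and Sod2 and below them for Ier3.

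Other NF-kB effectors were followed beside the 9, as a list of 29 of which 24 passed the filter on low counts. This list and the lists below were drawn up with earlier results of these data known. Genes are named from them by the size of their change, so their adjusted p are descriptions and not tests. With PM2.5, 10 rose and 2 fell in EpH4-AS, where 6.39% of all genes were called higher and 4.75% lower, and 12 rose and 3 fell in EpH4, where 14.3% and 12.9% were. Irf1, a transcription factor of the interferon response, had 166 ± 8.14 CPM in exposed and 64.1 ± 0.439 CPM in untreated EpH4-AS (log2 fold change 1.37, edgeR adjusted p = 2.39e-08). The complement component C3 had 91.5 ± 14.3 CPM in exposed and 36.4 ± 1.047 CPM in untreated EpH4-AS (1.33, edgeR adjusted p = 7.50e-06). In EpH4 the acute-phase protein Hp had 6.08 ± 2.67 CPM with PM2.5 and 2.01 ± 1.83 CPM without it (1.56, edgeR adjusted p = 0.0147), and Ptx3, a pentraxin, had 5.59 ± 0.176 CPM with PM2.5 and 2.33 ± 0.255 CPM without it (1.26, edgeR adjusted p = 0.000688). Between untreated lines 2 of the 24 were higher and 22 lower in EpH4-AS. Part of that count was fixed in advance. Selp, Cfb, Hp, Ptx3, Lbp, Il1rn and Tnip3 had at most 9 reads in either EpH4-AS group. They passed the filter only through EpH4 and had to be lower in EpH4-AS. C3 was at 36.4 ± 1.047 CPM in untreated EpH4-AS beside 748 ± 94.9 CPM in untreated EpH4, and the inducible nitric oxide synthase Nos2 was at 110 ± 11.5 CPM in untreated EpH4-AS beside 1200.3 ± 54.3 CPM in untreated EpH4. Most of the 9 genes and most of these effectors, those fixed in advance included, were thus lower in untreated EpH4-AS, in a comparison where 45.7% of all genes were.

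The subunits, inhibitors and kinases of NF-kB itself, a list of 19 that all passed the filter, rose with PM2.5 in 12 cases in EpH4-AS, and in 10 cases in EpH4 with 1 fall, beside 6.39% of all genes called higher in EpH4-AS and 14.3% higher and 12.9% lower in EpH4. Their median log2 fold change was 0.44 in EpH4-AS and 0.23 in EpH4. The genes named next are among those with the largest changes, so their adjusted p are again descriptions. Nfkbia, the inhibitor that NF-kB induces against itself, had 501 ± 5.83 CPM in exposed and 183 ± 2.17 CPM in untreated EpH4-AS (1.45, edgeR adjusted p = 9.02e-10), and 137 ± 7.42 CPM in exposed and 89.0 ± 3.72 CPM in untreated EpH4 (0.62, edgeR adjusted p = 5.98e-06). Zc3h12a, a ribonuclease that limits inflammatory transcripts, had 77.5 ± 14.2 CPM in exposed and 22.2 ± 1.41 CPM in untreated EpH4-AS (1.81, edgeR adjusted p = 6.32e-07). In EpH4, Ikbkg, the regulatory subunit of the activating kinase, had 170 ± 4.72 CPM with PM2.5 and 95.6 ± 2.15 CPM without it (0.83, edgeR adjusted p = 7.65e-07). The response in EpH4-AS minus that in EpH4 was positive and past the threshold for 10 of the 19 and negative for 1, where 7.60% of all genes were called higher and 6.49% lower.

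For each of the 9 genes the single most alike other gene was sought among 12852 candidates, by the root mean square difference of log2 levels over the 4 group means, each profile centred on its own mean. Zc3h12a was the most alike to Sod2, at a difference of 0.187. Slpi was closest to Inhba, the activin A subunit, at 0.0686, Vcam1 to Plek at 0.0911, Lcn2 to Sspo at 0.150 and Saa3 to Nlrp4e at 0.0738. Ier3 was closest to the adhesion gene Nrcam at 0.120, Traf1 to Clip3 at 0.0160, Birc3 to the ribonuclease Rnase4 at 0.0704 and Icam1 to Rplp1rt at 0.220. Some of these matches were near 0 in a line, where log2 levels depend on the prior count. In exposed and untreated EpH4-AS, Plek averaged 0.115 and 0 CPM, Nlrp4e 0.167 and 0.0918 CPM, and Sspo 0.540 and 0.244 CPM. Rplp1rt had 0 CPM in EpH4. Likeness concerns the profile and not the amount. With 4 group means and 12852 candidates, close matches are easily found, so these are descriptions only.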

How the data were processed

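PolyA RNA of 8 spheroid libraries was prepared with a stranded mRNA kit, per the labels. The authors deposited raw whole-number counts per gene on GRCm39, per the submitters' processing notes; both count tables held equal values in the 8 count columns. The authors also deposited RPKM values, scaled by exon length and library, and total gene reads per library, a count wider than exons, per the file headers. For aligner, counter, strand setting and annotation release, the version or name is not given in the sources used here. No region of the 9 genes overlapped another gene of the table.

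A count above 0 was found for 19932 of 25413 genes; filterByExpr kept 13716, which hold 99.964% of counts. After TMM scaling, edgeR 4.0.16 (R 4.3.3) fitted the 4 group means by quasi-likelihood, leaving 4 residual degrees of freedom at a biological coefficient of variation of 4.67%; the script was tested on simulated data. P-values are two-sided and adjusted over all tested genes by Benjamini-Hochberg within each of 5 contrasts, at a threshold of 0.05. Means ± SD are over the 2 libraries of a group, and log2 fold changes are given ± SE. Alternatives used DESeq2 1.42.0, other filters, a replicate block and libraries left out. Intervals and ratios of low counts cover counting error only. Promoters are from RefSeq, GRCm38.p6, and their coordinates are not those of the count table.

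The 9 genes, the gene lists and the naming rule were chosen with earlier results of these data known. All 9 were named. From each list, up to 3 genes per contrast were eligible, with at least 5 CPM in the higher group and the largest changes past the threshold; Icam5, Birc2 and the Saa genes that lie beside a member, and the marker genes, were named in addition. The most alike genes left out predicted gene models and pseudogenes.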

Additional observations from a re-analysis of the deposited data

Results flagged for a closer look

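For 3 genes the interaction term of the edgeR fit, the PM2.5 response in EpH4-AS minus that in EpH4, passed the threshold; it contains the contrast taken to have chosen the genes, so its values are a description and not a test. The log2 effect in EpH4-AS minus that in EpH4 was 1.85 for Ier3, 1.40 for Lcn2 and 1.08 for Sod2. In EpH4-AS both exposed libraries of each gene were above both untreated ones. In EpH4, Ier3 had both exposed libraries at or below the untreated ones, Lcn2 had overlapping groups, and Sod2 rose by 0.53.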

How the results depend on the processing

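With 2 libraries a group, the fit leaves 4 residual degrees of freedom, and a lone library was taken to vary like the other groups. Depth limits Icam1 and Birc3 in EpH4, at 2 to 6 reads per group, and Saa3 in EpH4-AS. The count of the 9 genes called for PM2.5 in EpH4-AS was 8, and ranged from 4 to 8 with a library left out; in EpH4 it was 5, with 3 under DESeq2 and 4 to 5 with a library left out. DESeq2 gave no adjusted p for Birc3 and Traf1 in EpH4-AS and called 6 there. Between exposed lines the range was 7 to 8, between untreated lines 9 in each, and for the difference of responses 3 to 4.

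Signs turned only where a library was left out, always for values not past the threshold. Saa3 with PM2.5 in EpH4-AS ranged from -0.022, without the second exposed EpH4-AS library, to 0.69. With PM2.5 in EpH4, Lcn2 ranged from -0.18 to 0.031 and Icam1 from -0.26 to 1.31, the first turning positive and the second negative without the first untreated EpH4 library. Sod2 between exposed lines ranged from -0.048, without the first exposed EpH4 library, to 0.20, and was -0.018 without the second exposed EpH4-AS library. The difference of responses ranged from -0.27, without the second untreated EpH4 library, to 1.30 for Icam1, and from -3.78 to 0.48, without the first exposed EpH4 library, for Birc3. The cause was not tested. The difference of responses for Slpi, 0.66, passed the threshold at 0.68 with no filter on low counts, at 0.96 without the second untreated EpH4 library and at 0.63 under the crossed block.

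The labels do not say that replicate numbers pair libraries, and deviations of same-numbered libraries correlated at 0.0646 in EpH4-AS and -0.101 in EpH4 over 13716 genes. With a replicate block the counts were 7, 5, 7, 9 and 3 for PM2.5 in EpH4-AS, PM2.5 in EpH4, the exposed lines, the untreated lines and the difference of responses, with Traf1 lost in EpH4-AS and Ier3 lost between the exposed lines. With numbers crossed in EpH4, an alternative chosen after seeing the data, they were 8, 5, 8, 9 and 4.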

Other observations

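Genes that feed NF-kB, a list of 25 receptors, ligands and adaptors of which 21 passed the filter, had 2 that rose and 1 that fell with PM2.5 in EpH4-AS, where 6.39% of all genes were called higher and 4.75% lower, and 7 that rose and 3 that fell in EpH4, where 14.3% and 12.9% were. Il1a, an alarm cytokine, had 9.31 ± 2.12 CPM in exposed and 2.68 ± 0.0719 CPM in untreated EpH4 (log2 fold change 1.79, edgeR adjusted p = 5.59e-05). Il33, another alarm cytokine, had 286 ± 2.32 CPM in exposed and 181 ± 30.4 CPM in untreated EpH4 (0.66, edgeR adjusted p = 0.000114), and only 0.336 ± 0.0624 CPM in exposed and 0.0949 ± 0.134 CPM in untreated EpH4-AS. Irak2, a kinase below interleukin-1 and Toll-like receptors, rose in both lines, to 32.3 ± 1.29 CPM in exposed against 20.8 ± 0.235 CPM in untreated EpH4-AS and to 14.2 ± 0.228 CPM in exposed against 9.70 ± 0.163 CPM in untreated EpH4.

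Of 10 binding partners of the 9 genes' products, 5 passed the filter, and 2 were called higher and 3 lower in EpH4-AS under either condition, where 89.0% of all genes with PM2.5 and 89.2% without it were called. Slc22a17, Lrp2 and Itgb2 passed only through the line where they are high and had to differ. Slc22a17, which encodes a receptor for lipocalin 2, had 26.9 ± 0.0602 CPM in exposed EpH4-AS and 0.0777 ± 0.0518 CPM in exposed EpH4, and 27.4 ± 0.968 CPM in untreated EpH4-AS beside 0.0579 ± 0.0305 CPM in untreated EpH4. The Slc22a17 transcript was therefore present in the line with the lower Lcn2 level. Lrp2, another listed partner that binds lipocalin 2, went the other way. It averaged 0.142 and 0.313 CPM in exposed and untreated EpH4-AS, and 3.73 and 4.82 CPM in exposed and untreated EpH4. Itgb2, the beta-2 chain of integrins that bind Icam1, had 0.225 ± 0.0115 CPM in exposed EpH4-AS and 23.4 ± 4.34 CPM in exposed EpH4. This chain was thus present in the line with nearly no Icam1. The listed alpha chains were nearly absent there. Itgal averaged 0.581 and 0.111 CPM in exposed and untreated EpH4, and Itgam 0.119 and 0 CPM.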
